A study of Mus musculus with 8 samples.

Results

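The comparison set the PU.1 sites called in the library titled Day 12- 4 against those called in the library titled Day 12, in a mouse acute myeloid leukaemia line followed by chromatin immunoprecipitation and sequencing (ChIP-seq). Each library was represented by a list of peak summits, 1 base position per called site. The Day 12- 4 list held 9868 sites and the Day 12 list 86271 sites, together 96139 of the 365360 sites in the 7 lists of the time course. Sites of the 2 lists counted as shared, or kept, where their summits were at most 100 bp apart. A site was given to a gene if it fell in the gene body or no more than 10 kb from it. Because the lists differed in length, the main comparisons were made on the full lists and again on lists of equal length. These hold the highest scores of each library, up to the length of the shortest list of the course, that of untreated cells (Day 0).

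AML246 cells, 1 leukaemia line whose genotype the labels do not give, were grown in IMDM with fetal calf serum and IL-3. Doxycycline (Dox, 0.1 ug/mL) was given from day 0 and taken away on day 12 of a 24 day course, and cells were sorted by flow cytometry before immunoprecipitation. The 2 libraries have the same treatment label, 12 days of Dox, and differ in title and in sort. The first is titled as a knockdown sample, Day 12- 4, and its sort label reads viable cells with high Cd11b. The other is titled as a restoration sample, Day 12, and its sort label reads total viable cells.

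The Day 12- 4 library therefore has 2 readings. By its title it belongs to the series taken after Dox withdrawal. By its treatment and sort labels it is a Cd11b-high fraction of cells that were still on Dox. These readings cannot be told apart from the labels, and each value below holds for the library under either one. Under both readings each condition had 1 library, so there was no replicate spread to measure a difference by and no test was made. Intervals are exact (Clopper-Pearson) 95% intervals and cover counting error only.

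PU.1, encoded by Spi1, is a transcription factor of the ETS family. It directs the differentiation of myeloid cells and binds purine-rich sequences with a GGAA core. In myeloid cells it acts on genes for growth factor receptors, integrins, granule proteins and the phagocyte oxidase, and it binds upstream of its own gene. Cd11b, the sort marker of the Day 12- 4 library, is the integrin chain encoded by Itgam and is displayed by maturing granulocytes and monocytes.

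The PU.1-type sequence GAGGAAGT was found close to summits in promoters of both kinds, those with a summit in both libraries and those with a summit in the Day 12 library alone. The 8 promoter stretches below are examples, picked for a motif within 50 bp of a summit. Each is printed 5′ to 3′ on the strand of its gene, from RefSeq for GRCm38.p6 (the coordinates of mm10), and ends at the gene start or before it. Capitals mark GAGGAAGT or its reverse complement ACTTCCTC. The first 4 had the highest Day 12- 4 scores among promoters with a summit in both libraries and a motif within 50 bp of it.
Prr14l, minus strand, chr5:32854231-32854306: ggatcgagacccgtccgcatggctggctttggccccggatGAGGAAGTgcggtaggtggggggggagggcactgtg
Dusp5, plus strand, chr19:53528912-53528999: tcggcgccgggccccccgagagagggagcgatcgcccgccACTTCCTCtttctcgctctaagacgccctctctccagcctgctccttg
Rab32, minus strand, chr10:10558208-10558290: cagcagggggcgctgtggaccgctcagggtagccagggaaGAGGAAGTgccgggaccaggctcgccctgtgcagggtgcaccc
Slc22a15, minus strand, chr3:101924454-101924526: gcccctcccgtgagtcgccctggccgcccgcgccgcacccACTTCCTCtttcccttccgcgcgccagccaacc
A score is the −log10 q-value of the called peak. Day 12- 4 scores at these summits were 396 at Prr14l, 363 at Dusp5, 324 at Rab32 and 310 at Slc22a15. Day 12 scores were 509 at Prr14l, 434 at Dusp5, 531 at Rab32 and 414 at Slc22a15. Summits of both libraries lay within a few bases of the motif at Prr14l, Dusp5 and Slc22a15, and the Day 12- 4 summit of Rab32 lay 11.5 bp from the motif centre. The next 4 had the highest Day 12 scores among promoters with such a motif and no Day 12- 4 summit.
Cd5, minus strand, chr19:10738980-10739067: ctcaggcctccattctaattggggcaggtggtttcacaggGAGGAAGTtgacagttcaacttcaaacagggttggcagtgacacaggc
Spag9, plus strand, chr11:93995857-93995944: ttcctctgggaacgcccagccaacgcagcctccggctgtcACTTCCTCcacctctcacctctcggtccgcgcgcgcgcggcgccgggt
Prtn3, plus strand, chr10:79879532-79879619: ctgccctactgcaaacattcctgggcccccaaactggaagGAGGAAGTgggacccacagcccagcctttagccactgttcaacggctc
Srp72, plus strand, chr5:76974583-76974670: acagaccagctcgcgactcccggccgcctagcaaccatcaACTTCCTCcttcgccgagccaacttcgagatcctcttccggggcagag
Their Day 12 scores were 278 at Cd5, a T-lymphoid surface receptor, 194 at Spag9, 169 at Prtn3, a granule serine protease gene, and 143 at Srp72, a signal recognition particle subunit. At Cd5 and Prtn3 the Day 12 summit lay 0.5 bp from the motif centre. At Srp72 the Day 12 summit lay 24.5 bp from the motif centre. By the way the 8 were picked, the motif lies near summits of both libraries in the first 4 and near a Day 12 summit alone in the others. They do not show how often this occurs. Over all promoter windows, described further below, the sequence was in 13.7% of those with a summit in both libraries. It was in 2.55% of those with a Day 12 summit alone and in 2.19% of those with neither.

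Most of the short list was contained in the long one. Of the 9868 Day 12- 4 sites, 7113 had a Day 12 summit within 100 bp, which is 72.1% (95% interval 71.2 to 73.0%). The same 7113 sites were 8.24% (8.06 to 8.43%) of the 86271 Day 12 sites. Paired summits lay a median of 25 bp apart, with an interquartile range of 10 to 50 bp, and 131 pairs fell on the same base. Between the lists of equal length 3961 sites were shared, 49.2% (48.1 to 50.3%) of either, and 4082 of each were not. The equal-length lists were cut at unequal heights, since the lowest score among them was 4.98 in the Day 12- 4 library and 81.9 in the Day 12 library. Of the Day 12- 4 sites in its equal-length list 79.0% had a Day 12 summit of any score, and of the Day 12 sites in the other 52.0% had a Day 12- 4 summit of any score.

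The Day 12 list was 8.74 times as long as the Day 12- 4 list. At scores of 100 or more the Day 12- 4 library had 332 sites and the Day 12 library 6794. Median scores of the full lists were close, 9.48 in the Day 12- 4 library and 8.43 in the Day 12 library. Sequencing depth is not known for either library, so a site without a call was not taken as unbound and the part of depth in the list lengths was not tested. Scores are the authors' own values for each list and do not measure a change in binding between libraries. Sites on unplaced scaffolds or the mitochondrial chromosome were 0.740% of the Day 12- 4 list and 0.163% of the Day 12 list.

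Sharing followed the score in both directions. Of the 500 highest Day 12- 4 sites 98.0% had a Day 12 summit, and of those ranked 8044 to 9868 41.8% did. Of the 500 highest Day 12 sites 94.4% (92.0 to 96.2%) had a Day 12- 4 summit. That share was 78.7% at ranks 1001 to 2000, 30.6% from rank 4001 to the end of the equal-length list and 1.49% below rank 32000. In each rank bin from 4001 on, at Day 12 scores of 170 and below, less than 50% were kept. The rank at which the share passed 50% was not sought within the bins. The plot of sharing by rank shows both declines.

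**Figure D1:**
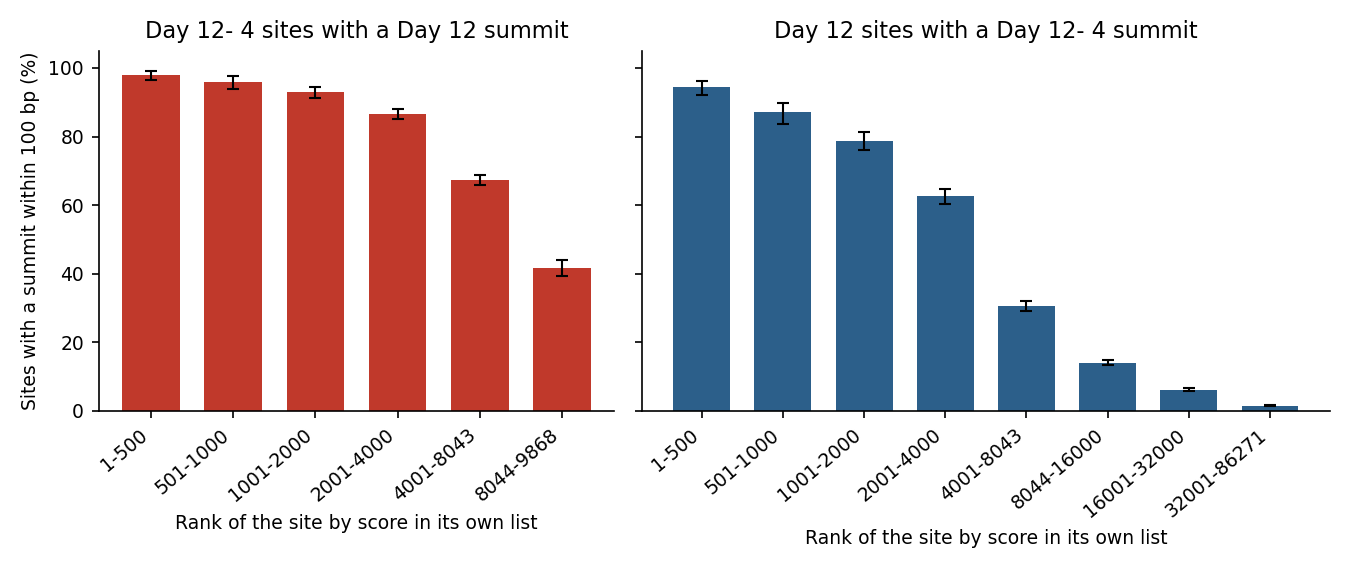
Percentage of sites with a summit of the other library within 100 bp (vertical axis) by rank of the site's score in its own list (horizontal axis), for Day 12- 4 sites on the left and Day 12 sites on the right. Bars are shares and error bars exact 95% binomial intervals. The Day 12- 4 bars run from 98.0% to 41.8% and the Day 12 bars from 94.4% to 1.49%.

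At the 7113 shared sites the median score was 12.3 in the Day 12- 4 library and 124 in the Day 12 library. Sites without a partner had median scores of 5.74 in the Day 12- 4 library and 7.42 in the Day 12 library. The 2 scores of a shared site had a Spearman rho of 0.577 across the 7113 sites, which is a description across sites, since all of them share the same 2 libraries. The Day 12- 4 score was the higher one at 584 shared sites, or 8.21%. These 584 sites had median scores of 11.4 in the Day 12- 4 library and 7.42 in the Day 12 library. At Day 4 of restoration 401 of them (68.7%) were called, with a median Day 4 score of 107, against 79.9% of the other 6529 with a median of 91.8. Of the 584 sites 8.39% (6.27 to 10.9%) lay near a gene end, meaning at most 1 kb from either end of a protein-coding gene, against 35.5% (34.3 to 36.7%) of the others. The 584 sites have low Day 12 scores by the way they were picked, so both shares were also taken within bins of the Day 12 score. At Day 12 scores of 5 to 10, 9.09% of the 220 sites with a higher Day 12- 4 score lay near a gene end, against 10.9% of the 284 others, with overlapping intervals. Below 5 and at 10 to 20 the intervals also overlapped. At 20 to 50 the gene-end shares were 1.69% (0.0429 to 9.09%) of 59 sites and 11.1% (9.17 to 13.4%) of 906 others. At 50 or more they were 7.02% (1.95 to 17.0%) of 57 sites and 45.4% (44.0 to 46.9%) of 4714 others. At Day 12 scores of 5 to 10, 65.0% (58.3 to 71.3%) of the 220 and 36.6% (31.0 to 42.5%) of the 284 were called at Day 4. By the way they were picked, the 220 have higher Day 12- 4 scores than the 284. These shares are therefore not at like Day 12- 4 scores. The integrin gene Itga6 had a site with the higher score in the Day 12- 4 library, described with the integrins.

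**Figure D2:**
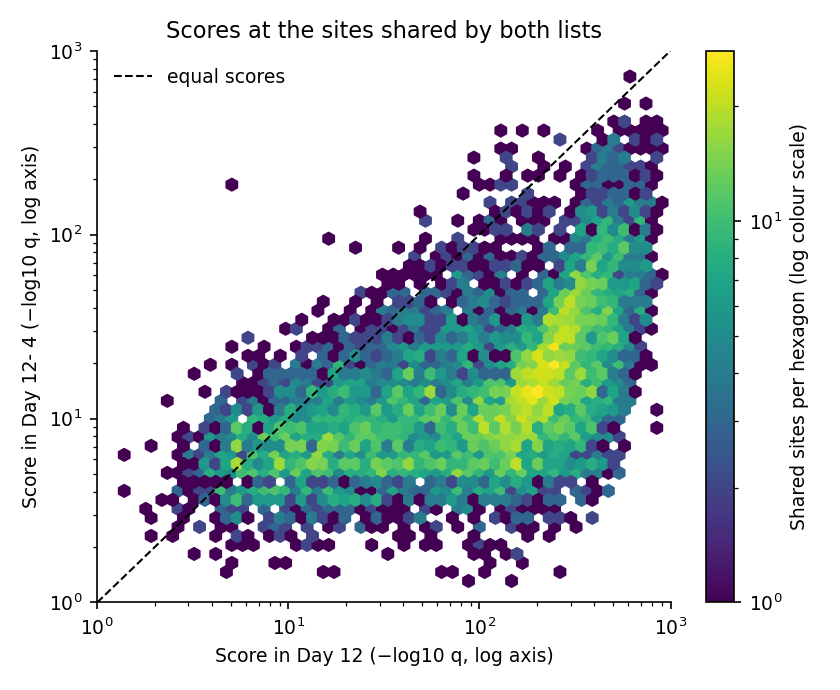
Score of each of the 7113 shared sites in the Day 12- 4 library (vertical axis) against its score in the Day 12 library (horizontal axis), both −log10 q on log axes, with colour for the number of sites per hexagon. Most sites lie below the dashed line of equal scores, and 584 lie above it.

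Position relative to genes differed between kept and missing sites. Among Day 12 sites, 33.3% (32.2 to 34.4%) of those kept lay within 1 kb of a gene end, and 16.3% (16.1 to 16.6%) of those missing. Of the Day 12- 4 sites without a Day 12 partner 21.6% lay there. In the equal-length lists the shares for kept and missing Day 12 sites were 49.3% and 44.2%, a smaller gap than in the full lists. Of their 4082 unshared Day 12- 4 sites 16.0% lay near a gene end. At matched Day 12 rank the order changed along the list. At ranks 2001 to 4000 68.0% of gene-end sites and 56.7% of farther sites were kept. At ranks 8044 to 16000 6.13% of gene-end sites (5.24 to 7.13%) and 17.97% of farther sites (16.9 to 19.02%) were kept.

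Sites kept in the Day 12- 4 library had often been called before day 12. In the full lists, 80.8% of the kept Day 12 sites and 18.2% of the missing ones had a Day 4 summit. Kept sites also had higher scores, so the shares were taken within ranks as well. At Day 12 ranks 8044 to 16000, 24.4% (23.0 to 25.8%) of sites called at Day 4 were kept, against 4.52% (3.91 to 5.20%) of sites not called at Day 4. Among the 500 highest Day 12 sites 19 had no Day 4 summit, and 12 of these were kept. All lists come from the same line, and depth was not known for any of them.

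Against each other list the Day 12- 4 sites were called at different rates. By treatment label the library titled Day 12- 8 was 4 days off Dox. The label of the library titled Day 12- 12 reads 8 days off Dox. Title and label thus differ in these libraries too, and not in Day 12- 4 alone. A further sample, with no list here and no time point in its title, is labelled 12 days off Dox. Libraries are named below by their titles. In the full lists the share of Day 12- 4 sites with a summit was 15.7% at Day 0, 66.3% at Day 4, 69.5% at Day 8, 72.1% at Day 12, 32.1% in the library titled Day 12- 8 and 69.3% in that titled Day 12- 12. The Day 12 list thus held the highest share, though the Day 8 list is much shorter, with 33962 sites. At equal length the order differed, with 56.7% shared with Day 8, 53.4% with Day 12- 12, 49.2% with Day 12, 48.3% with Day 4, 29.7% with Day 12- 8 and 18.8% with Day 0. Of the 4082 Day 12- 4 sites outside the equal-length Day 12 list, 45.2% (43.7 to 46.7%) were in the equal-length list of Day 4. Of the 4082 Day 12 sites outside the equal-length Day 12- 4 list, 18.7% (17.5 to 19.9%) were. For Day 12- 12 the shares stood the other way round, 22.0% of the unshared Day 12- 4 sites and 43.7% of the unshared Day 12 sites.

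**Figure D3:**
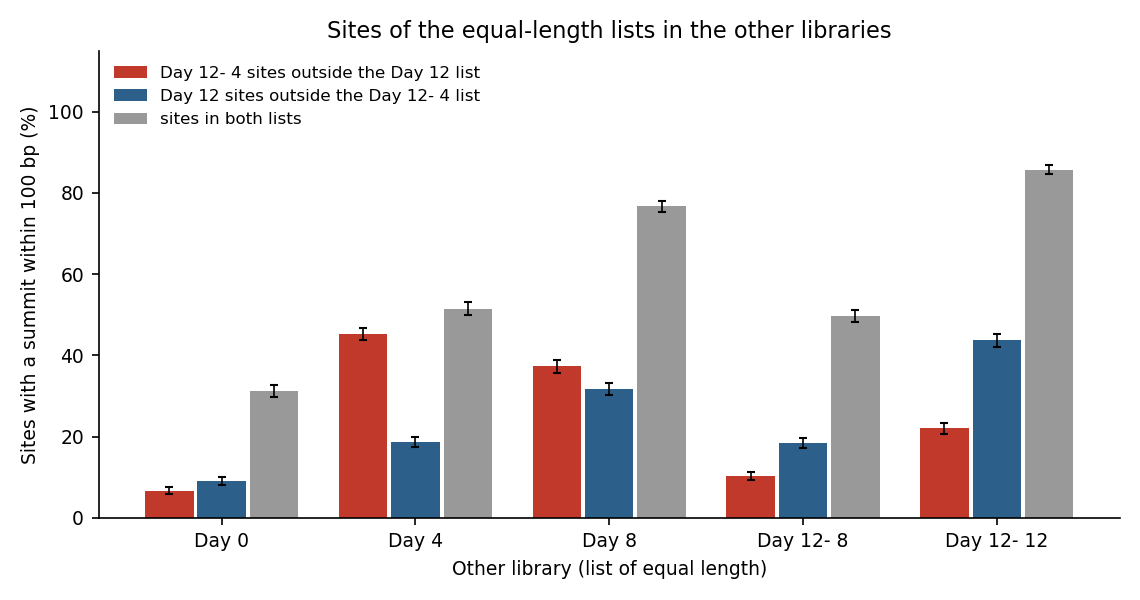
Percentage of sites of the equal-length lists with a summit within 100 bp in the equal-length list of each other library. Red bars are Day 12- 4 sites outside the equal-length Day 12 list. Blue bars are Day 12 sites outside the equal-length Day 12- 4 list, and grey bars are sites in both. A site outside an equal-length list can still be in the full list. Error bars are exact 95% binomial intervals, and the red bar exceeds the blue one at Day 4 (45.2% and 18.7%) and at Day 8 (37.3% and 31.7%).

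The full lists left 2755 Day 12- 4 sites unshared, and 902 of them (32.7%) were called in no other library. Another 1125 (40.8%) were called at Day 0, 4 or 8, and 728 (26.4%) in Day 12- 8 or Day 12- 12 and in none of the earlier libraries. Many of the 2755 had a Day 12 summit a little farther away. Beyond 500 bp 1273 Day 12- 4 sites (12.9%) had no Day 12 summit, and 502 of those had one within 2 kb.

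The 10 strongest shared sites were called at almost every time. The highest Day 12- 4 site lay in Tsc22d1, a transcriptional regulator induced by TGF-beta, on chromosome 14 at 76506685. It scored 724 in the Day 12- 4 library and 636 in the Day 12 library. Trim7, an E3 ubiquitin ligase gene, had a site nearby with 550 in the Day 12- 4 library and 738 in the Day 12 library. Actr2, which encodes a subunit of the actin-branching Arp complex, scored 501 in the Day 12- 4 library and 603 in the Day 12 library. The sites of Rasa3, a Ras GTPase-activating protein, and Cpt1a, which admits fatty acids to mitochondria, scored 422 and 411 in the Day 12- 4 library and 842 and 729 in the Day 12 library. The others were nearest to Lrrc75a, Prr14l, Tatdn1, Slc39a13 and Ceacam16. All 10 sites were also called at Day 0, Day 4, Day 12- 8 and Day 12- 12, and 9 of them at Day 8. Their ranks in the Day 12 list ran from 13 to 448.

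The 10 strongest Day 12 sites more than 500 bp from any Day 12- 4 summit scored 496 to 579 in the Day 12 library. The first lay 722 bp outside Cbl, an E3 ubiquitin ligase that acts on tyrosine kinase receptors, and its nearest Day 12- 4 summit was 70796 bp away. The site near Tnfrsf13b, a B-lymphoid receptor of the tumour necrosis factor family, scored 561, and a site 61.5 kb from Runx3, a Runt-family transcription factor, scored 554. Itpkb, an inositol phosphate kinase, had 528 and Pik3cd, a catalytic subunit of phosphoinositide 3-kinase, had 497. Foxn2, Dpep2, Vps9d1 and Nek6 were the genes nearest to 4 more. The remaining one, near the actin regulator Cap1 and with a score of 573, had a Day 12- 4 summit 623 bp away. All 10 sites had a summit at Day 4, Day 8 and Day 12- 12, and none at Day 0 or Day 12- 8. Of all Day 12 sites without a Day 12- 4 partner 18.2% had one at Day 4, 17.6% at Day 8 and 43.4% in Day 12- 12. At Day 0 1.66% of them did and in Day 12- 8 6.02%, so few or none of any 10 would be called there. Among the 500 highest Day 12 sites 481 had a Day 4 summit.

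The 10 strongest Day 12- 4 sites more than 500 bp from any Day 12 summit scored 40.1 to 88.8 in the Day 12- 4 library. In 9 of the 10 a Day 12 summit lay between 595 bp and 2 kb away, so these sites sat beside Day 12 sites. The first was 779 bp from Phf12, a corepressor subunit, with 88.8 in the Day 12- 4 library, and a Day 12 summit scoring 78.8 lay 650 bp from it. In Cap1 the Day 12- 4 summit of 51.2 was the one 623 bp from the Day 12 summit of 573. In Cfl1, the gene of cofilin, which severs actin filaments, a Day 12- 4 summit of 44.8 lay 909 bp from a Day 12 summit of 577. The other 6 with a close Day 12 summit were nearest to Gm20783, Slc43a2, Kcnrg, Noc2l, Derl2 and Zfp668. The exception was a site 368 kb from Arid1b, a chromatin remodelling subunit, whose nearest Day 12 summit was 33482 bp away.

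Counted by gene, 7623 of 21883 protein-coding genes (34.8%) had a Day 12- 4 site and 16870 (77.1%) had a Day 12 site. Both libraries had a site at 7586 genes, which is 45.0% of the genes called in Day 12 and 99.5% of those called in Day 12- 4. A Day 12 site alone was found at 9284 genes and a Day 12- 4 site alone at 37. In the equal-length lists 6781 genes (31.0%) had a Day 12- 4 site and 7697 (35.2%) a Day 12 site, and 5463 had both. Those 5463 were 71.0% of the Day 12 genes and 80.6% of the Day 12- 4 genes. A gene can have a site in both libraries while its strongest Day 12 site has no Day 12- 4 summit within 100 bp. The highest Day 12 site itself had a Day 12- 4 summit within 100 bp at 5091 genes, or 30.2% of the 16870.

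The share of genes with a Day 12- 4 site followed the Day 12 score. Of genes whose highest Day 12 site scored below 10, 7.23% had a Day 12- 4 site. The share was 34.9% at scores of 50 to 100, 62.3% at 100 to 200, 90.4% at 200 to 400 and 98.2% (97.4 to 98.9%) at 400 or more. It also followed the number of Day 12 sites, from 19.9% of genes with 1 site to 88.5% of genes with 21 or more. A gene's score below is that of its strongest site, and where 2 scores are given for a gene they belong to 1 shared site unless stated. The counts for the gene groups below are read beside these values and beside the 45.0% over all genes.

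Among the genes with a Day 12 site alone, the highest Day 12 scores were at Il11 (626) and Actl6a (595), but these were edge cases of the 10 kb window. A Day 12- 4 summit lay 44 bp from the Il11 site and 158 bp from the Actl6a site, just outside the window of the gene. The next were Cbl and its neighbour Ccdc153, which share 1 site of 579, and Vps9d1 and Zfp276, which share 1 site of 500. The calcium channel gene Orai1 and its neighbour Morn3 share a site of 480, and Zfp334 and Zfp663 share another of 480. All of these 8 genes had their nearest Day 12- 4 summit more than 20 kb from that site. Each pair counts as 2 genes but rests on 1 site.

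The 37 genes with a Day 12- 4 site alone had low scores, with a median of 5.85 and a highest of 11.7 in the Day 12- 4 library. The highest were Gucy1a2, a guanylate cyclase subunit (11.7), Blk, a B-lymphoid Src-family kinase (10.4), Sox30 (9.61) and Nox1, an NADPH oxidase (9.48). Next came Olfr854 and Olfr855 with 1 common site (9.44), Cdrt4 (8.53), Olfr410 and Olfr411 with another common site (7.61), and Nlrp4a (6.72). Of the 37, 29 (78.4%) had a site at Day 4 or Day 8, against 73.1% of all protein-coding genes, and 29 in Day 12- 12, against 78.9% of all. A Day 0 site was called at 9 (24.3%), against 36.8% of all, and a Day 12- 8 site at 7 (18.9%), against 61.8% of all. The 37 were picked for having no Day 12 site, which 77.1% of all genes had. They are thus not matched to all genes, and other genes without a Day 12 site were not counted apart. Blk, for example, had sites scoring 57.7 at Day 4 and 40.7 at Day 8.

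Spi1, on chromosome 2 from 91082374 to 91115759, had 4 sites in the Day 12- 4 library and 12 in the Day 12 library. All 4 Day 12- 4 sites had a Day 12 partner within 45 bp. The strongest, at 91083094, scored 219 in the Day 12- 4 library and 674 in the Day 12 library, with summits 1 bp apart. The site at 91096729 scored 17.8 in the Day 12- 4 library, and its Day 12 partner scored 305. At 91084773 the scores were 9.48 in the Day 12- 4 library and 374 in the Day 12 library. At 91081261, 1113 bp outside the gene, they were 6.72 in the Day 12- 4 library and 43.6 in the Day 12 library. Beyond the window, 11713 bp from the gene and 220 bp from Slc39a13, a zinc transporter gene, lay a shared site scoring 391 in the Day 12- 4 library and 534 in the Day 12 library. The 8 unmatched Day 12 sites of Spi1 scored 4.61 to 87.1, all below 3 of the 4 Day 12 scores of the matched ones.

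Itgam, which encodes the sort marker Cd11b, had 1 Day 12- 4 site and 7 Day 12 sites. The Day 12- 4 site, at chromosome 7, 128065801 and inside the gene, scored 9.10, and its Day 12 partner 50 bp away scored 18.3. The highest Day 12 site of Itgam, at 128115469, scored 39.7, and its nearest Day 12- 4 summit was 49668 bp away. In the equal-length lists the Day 12- 4 site of Itgam was included and no Day 12 site was. Itgam was called at Day 4 with 86.2 and at Day 8 with 23.7. The lists measure PU.1 sites and not Itgam RNA or protein, so they do not check the sort.

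Integrins are the adhesion receptors that leukocytes use to leave the blood. Of 10 leukocyte integrin genes 7 had a Day 12- 4 site and all 10 a Day 12 site, and the highest Day 12 site was kept at 5. The strongest Day 12- 4 site of Itgb7 scored 142, and its Day 12 partner 173. The strongest Day 12 site of that gene, 6358 bp away, scored 12.4 in the Day 12- 4 library and 284 in the Day 12 library. Itgb2, the common beta chain of the leukocyte integrins, scored 20.03 in the Day 12- 4 library and 343 in the Day 12 library at its strongest Day 12- 4 site. At its strongest Day 12 site it scored 11.6 in the Day 12- 4 library and 401 in the Day 12 library, and all 4 of its Day 12- 4 sites had a partner among the 18 of Day 12. Itgad, an alpha chain of the same cluster as Itgam, scored 18.9 in the Day 12- 4 library and 443 in the Day 12 library. Itga6, the laminin receptor alpha chain, stood the other way. Its shared site scored 35.96 in the Day 12- 4 library and 11.6 in the Day 12 library. The highest of the 4 Day 4 sites of that gene scored 190, and whether it was the same site was not checked. Itgal, Itgax and Itgb1 had no Day 12- 4 site, with Day 12 scores of 137, 16.5 and 11.8. In the equal-length lists 6 of the 10 had a Day 12- 4 site, 4 a Day 12 site and 3 both.

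Of 25 myeloid surface receptors and adaptors 15 had a Day 12- 4 site and 23 a Day 12 site, all 15 in common. Cd300a, an inhibitory receptor, scored 161 in the Day 12- 4 library and 778 in the Day 12 library, with summits 12 bp apart. Csf2ra, the alpha chain of the GM-CSF receptor, scored 93.5 in the Day 12- 4 library and 469 in the Day 12 library. Fcer1g, the signalling chain of Fc receptors, had 44.5 in the Day 12- 4 library and 389 in the Day 12 library. Il6ra, the interleukin 6 receptor chain, had 40.8 in the Day 12- 4 library and 306 in the Day 12 library. No Day 12- 4 site was called at Csf3r, the G-CSF receptor, at Fcgr1, at Tlr2 or at Cd33, whose Day 12 scores were 94.3, 76.5, 19.6 and 10.5. In the equal-length lists 15 of the 25 had a Day 12- 4 site, 15 a Day 12 site and 14 both.

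Among 20 genes of the phagocyte oxidase and of granule proteins, 12 had a Day 12- 4 site and 19 a Day 12 site, and the highest Day 12 site was kept at 7. Lyz1 and Lyz2 were both counted through the same Day 12- 4 site. Cyba, the oxidase's membrane light chain, scored 141 in the Day 12- 4 library and 485 in the Day 12 library. Rac2, its GTPase, scored 63.5 in the Day 12- 4 library and 807 in the Day 12 library. Ncf4, a cytosolic subunit, scored 56.8 in the Day 12- 4 library and 765 in the Day 12 library. The highest Day 12 scores without a Day 12- 4 site were at Mmp9 (79.7), Lcn2 (64.2), Camp (19.996) and Ngp (16.3), which encode a gelatinase, lipocalin, cathelicidin and a secondary granule protein. At equal length 10 of the 20 had a Day 12- 4 site, 7 a Day 12 site and 7 both.

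Elane and Prtn3, neighbouring serine protease genes of the azurophil granule, show both outcomes within one cluster. The Prtn3 promoter printed above had a Day 12 score of 169 and no Day 12- 4 summit. The Elane promoter also holds the PU.1-type sequence, with a summit of 6.48 in the Day 12- 4 library and of 137 in the Day 12 library. That Day 12- 4 summit falls in the windows of both genes, so both were counted as having a site. The S100a8 promoter, of a gene for a calcium-binding granulocyte protein, had a summit of 13.4 in the Day 12- 4 library and none in the Day 12 library, whose nearest summit lay 1609 bp away. Both stretches are given in the same way as above, as list genes with the motif.
Elane, plus strand, chr10:79886187-79886274: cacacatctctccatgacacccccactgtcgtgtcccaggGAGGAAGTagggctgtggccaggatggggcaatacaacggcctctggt
S100a8, plus strand, chr3:90668859-90668946: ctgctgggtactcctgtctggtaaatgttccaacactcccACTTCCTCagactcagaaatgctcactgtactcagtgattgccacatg

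Of 25 myeloid transcription factor genes 12 had a Day 12- 4 site and 22 a Day 12 site. After Spi1 the highest Day 12- 4 scores of this list were those of Junb, Egr1 and Nr4a1. The Junb site lay 35 bp outside its gene, the Egr1 site 4759 bp and the Nr4a1 site 9487 bp. Junb, an AP-1 subunit, scored 65.8 in the Day 12- 4 library and 407 in the Day 12 library. Egr1, a zinc finger factor of monocyte development, scored 57.1 in the Day 12- 4 library and 567 in the Day 12 library. Nr4a1, an orphan nuclear receptor, scored 52.1 in the Day 12- 4 library and 345 in the Day 12 library at its strongest Day 12- 4 site. At its strongest Day 12 site, 21619 bp away, it scored 26.2 in the Day 12- 4 library and 567 in the Day 12 library. Jun (231), Cebpb (219), Stat3 (165) and Klf2 (157) had Day 12 sites and no Day 12- 4 site. Cebpb, a bZIP factor of granulocytes and macrophages, scored 14.3 at Day 4 and 211 at Day 8. At equal length 11 of the 25 had a Day 12- 4 site, 15 a Day 12 site and 10 both.

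Of 24 stem, progenitor and leukaemia-associated genes 15 had a Day 12- 4 site and 23 a Day 12 site. The highest Day 12 site was kept at 7 of the 23, near the 30.2% over all genes. Lyl1, a basic helix-loop-helix factor of progenitors, scored 152 in the Day 12- 4 library and 545 in the Day 12 library. Ikzf1, which encodes Ikaros, had 78.9 in the Day 12- 4 library and 247 in the Day 12 library. Etv6, an ETS repressor, had 66.3 in the Day 12- 4 library and 308 in the Day 12 library. The homeobox gene Meis1 had 25.8 in the Day 12- 4 library and 94.6 in the Day 12 library. Bmi1 (92.9), Sox4 (51.9), Myc (34.3) and Ikzf2 (16.6) had Day 12 sites and no Day 12- 4 site. At equal length 14 of the 24 had a Day 12- 4 site, 8 a Day 12 site and 7 both.

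Genes of other blood lineages were counted in the same way. Of 14 B-lymphoid genes 7 had a Day 12- 4 site and 11 a Day 12 site, 6 in common. Btk, a kinase of B cells and myeloid cells, scored 63.8 in the Day 12- 4 library and 768 in the Day 12 library, and Igll1 scored 13.2 in Day 12- 4 and 124 in Day 12. The Igll1 site was also the site counted for Vpreb1. Cd22 and Ebf1 had Day 12 sites alone, with 85.3 and 22.6. Rag1 was the one gene of all lists with a Day 12- 4 site (6.72) and no Day 12 site. Of 14 T-lymphoid genes 3 had a Day 12- 4 site and 13 a Day 12 site. Gata3 scored 12.6 in the Day 12- 4 library and 75.5 in the Day 12 library, and Cd3d scored 8.53 in Day 12- 4 and 97.3 in Day 12. The Cd3d site was also the site counted for Cd3g. Cd5 and the kinase gene Lck had Day 12 scores of 278 and 116 and no Day 12- 4 site. At equal length 7 of the B-lymphoid genes had a Day 12- 4 site, 6 a Day 12 site and 5 both, and 3 of the T-lymphoid genes had a Day 12- 4 site, 4 a Day 12 site and 2 both.

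Of 14 erythroid and megakaryocytic genes 7 had a Day 12- 4 site and 12 a Day 12 site. Vwf, the von Willebrand factor gene, scored 80.6 in the Day 12- 4 library and 600 in the Day 12 library. Nfe2 scored 45.1 in the Day 12- 4 library and 665 in the Day 12 library. Tfrc, the transferrin receptor, and Epor, the erythropoietin receptor, had Day 12 scores of 175 and 109 and no Day 12- 4 site. Of 10 mast cell and basophil genes 1 had a Day 12- 4 site and 4 a Day 12 site. That one was Hdc, the histidine decarboxylase gene, with 5.02 in the Day 12- 4 library and 459 in the Day 12 library. Tpsb2 and Il1rl1 had Day 12 scores of 33.4 and 23.9 alone. At equal length 7 of the erythroid and megakaryocytic genes had a Day 12- 4 site and 8 a Day 12 site, and 1 mast cell gene had a site in each.

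Lists with no myeloid role gave shares on both sides of the 45.0% over all genes. Of 22 cell cycle genes 15 had a Day 12- 4 site and all 22 a Day 12 site. Cdc20 scored 170 in the Day 12- 4 library and 363 in the Day 12 library, and the helicase subunit gene Mcm7 scored 131 in Day 12- 4 and 538 in Day 12. Mcm6 and Rrm2 had Day 12 scores of 100.03 and 76.0 and no Day 12- 4 site. Of 19 housekeeping genes 14 had a Day 12- 4 site and all 19 a Day 12 site. Gusb scored 321 in the Day 12- 4 library and 509 in the Day 12 library. B2m had a Day 12 score of 63.7 alone. Of 20 non-haematopoietic genes 3 had a Day 12- 4 site and 17 a Day 12 site. Apoa1 scored 21.6 in the Day 12- 4 library and 357 in the Day 12 library, and Krt5 scored 18.9 in Day 12- 4 and 18.7 in Day 12. Nes and Gfap had Day 12 scores of 196 and 55.8 alone. At equal length 13 cell cycle, 14 housekeeping and 3 non-haematopoietic genes had a Day 12- 4 site, and 14 cell cycle, 15 housekeeping and 3 non-haematopoietic genes had a Day 12 site.

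Over all 12 lists 195 genes had a Day 12 site, and a Day 12- 4 site was called at 110 of these, or 56.4%. The median of the highest Day 12 scores was 190 for housekeeping genes, 119 for cell cycle genes, 126 for myeloid receptors, 34.8 for T-lymphoid genes, 28.6 for mast cell and basophil genes and 10.0 for non-haematopoietic genes, and it was 67.1 over all genes. The 3 lists with the smallest share of Day 12- 4 genes, mast cell and basophil, non-haematopoietic and T-lymphoid, also had the 3 lowest medians. The other lists did not follow the median in the same way. Of the Day 12 genes 63.2% kept a site among granule and oxidase genes (median 48.6) and 65.2% among stem and progenitor genes (median 55.8), against 54.5% among myeloid transcription factors (median 161) and 58.3% among erythroid and megakaryocytic genes (median 153). The part of Day 12 score in the list counts was not tested.

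**Figure D4:**
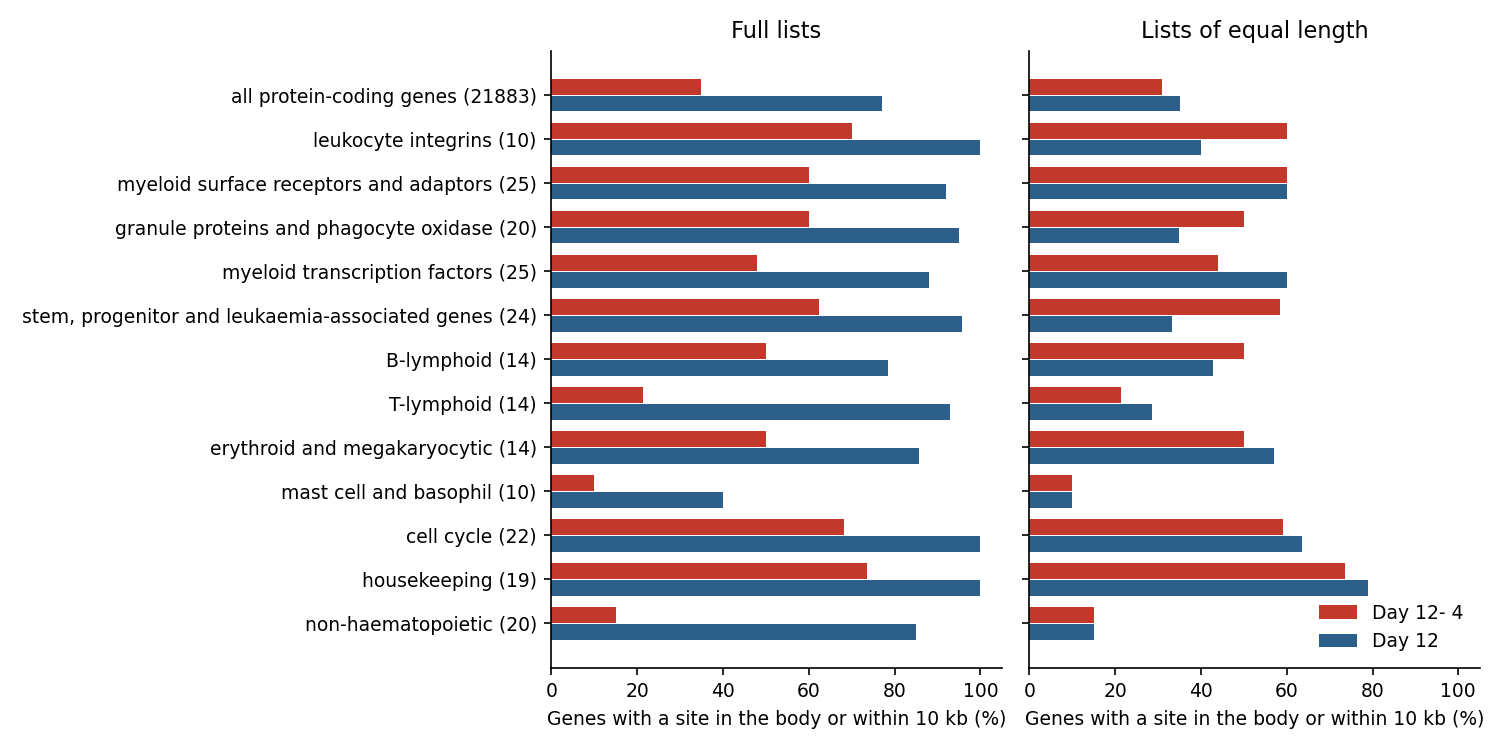
Percentage of the genes of each list with a site in the body or within 10 kb, in the Day 12- 4 library (red) and the Day 12 library (blue), for the full lists on the left and the equal-length lists on the right, with the number of genes in parentheses. All protein-coding genes stand at 34.8% in Day 12- 4 and 77.1% in Day 12 in the full lists, and at 31.0% in Day 12- 4 and 35.2% in Day 12 at equal length.

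Promoter sequence differed between kept and missing sites. Windows of 300 bases, from 250 before to 50 after the gene start, were available from RefSeq for 17491 of the 21883 protein-coding genes, 21262 windows in all and none on chromosome 18. Motifs were sought on both strands, and GAGGAAGT and CCGGAAGT, the second a form bound by other ETS factors, overlap in their GGAAGT core. The PU.1-type GAGGAAGT was in 13.7% (11.9 to 15.6%) of the 1433 windows with a summit in both libraries. It was in 2.55% (2.10 to 3.08%) of the 4188 windows with a Day 12 summit and none of Day 12- 4 in or near them. Windows with a Day 12- 4 summit and no Day 12 summit in or near them numbered 46, and 5 of these held it. Near means within 500 bp. Windows with neither held it in 2.19%, and all windows in 3.13%. The other ETS form CCGGAAGT was in 20.3% of windows with both, 9.72% of those with Day 12 alone and 5.15% of all windows, and in 1 of the 46 with Day 12- 4 alone.

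The remaining motifs separated the classes less. The Runt-type TGTGGT was in 11.3% of windows with both, 12.3% of those with Day 12 alone and 15.0% of all. The AP-1 form TGANTCA, where N is any base, was in 2.65% of windows with both, 4.54% of those with Day 12 alone and 6.99% of all. The GC box GGGCGG was in 72.8% of windows with both, 69.4% of those with Day 12 alone and 46.2% of all. A match is a description of the letters in a window and not a bound site.

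Because kept promoters had higher Day 12 scores, the shares were also taken within bins of that score. The bins did not level the score. Windows with both had the higher median in each bin, 72.4 against 45.1 at Day 12 scores of 20 to 100. At 100 to 200 the medians were 160 and 126. At Day 12 scores of 20 to 100, GAGGAAGT was in 13.1% (7.98 to 19.97%) of 137 windows with both and in 2.02% (1.44 to 2.73%) of 1985 with Day 12 alone. At 100 to 200 it was in 6.84% (4.55 to 9.79%) of 395 windows with both and in 3.55% (2.15 to 5.49%) of 535 with Day 12 alone, and these intervals overlap. At 200 to 300 the shares were 10.0% of 408 windows with both and 4.17% of 72 with Day 12 alone, again with overlapping intervals. At 300 or more it was in 22.2% of 473 windows with both, and in none of the 10 with Day 12 alone, which allows up to 30.8%. Where both libraries had a summit and the window held GAGGAAGT, the motif centre lay a median of 22.5 bp from the Day 12- 4 summit and 16.0 bp from the Day 12 summit. In windows with Day 12 alone the median was 38.5 bp. For CCGGAAGT the shares within these bins did not all stand in the same order. At Day 12 scores of 20 to 100 it was in 10.2% of windows with both and 12.0% of those with Day 12 alone, and at 100 to 200 in 25.3% (21.1 to 29.9%) of windows with both and 14.8% (11.9 to 18.1%) of those with Day 12 alone. Its centre lay a median of 37.5 bp from the Day 12- 4 summit and 35.5 bp from the Day 12 summit in windows with both, and 28.5 bp from the summit with Day 12 alone.

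**Figure D5:**
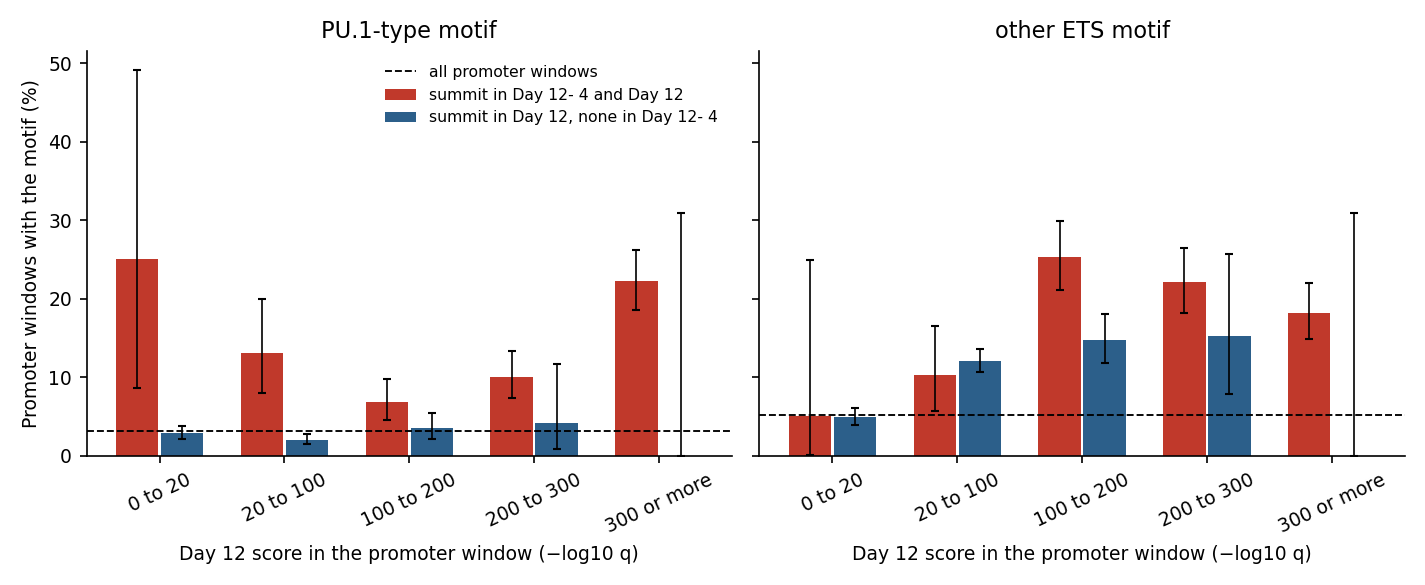
Percentage of promoter windows holding the PU.1-type motif (left) or the other ETS motif (right), by Day 12 score in the window, for windows with a summit in the Day 12- 4 and Day 12 libraries (red) and in the Day 12 library alone (blue). Error bars are exact 95% binomial intervals and the dashed line is the share of all windows, 3.13% on the left and 5.15% on the right.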

How the data were processed

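Per the submitters' processing notes, peaks were called with MACS2 on mm10. Not given in the sources used here are the aligner, MACS2 version, control, depth and pooling. The score deposited with each summit was taken to be a −log10 q-value: no file had one below 1.30104, and a q limit of 0.05 corresponds to 1.30103.

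Lists were compared in Python (3.11.15) with the packages scipy (1.17.1), pandas (2.3.3) and numpy (2.4.6), and figures drawn using matplotlib (3.10.9). Samples were grouped by title. Genes and promoters came from RefSeq tables for GRCm38.p6, with genes in any orientation and either end counted as a gene end. Overlap functions were tested on simulated data. Sites were named as the 10 highest shared (by Day 12- 4 score), Day 12 only and Day 12- 4 only, the last 2 kinds with no other summit within 500 bp. Of each gene list the 4 (first 5 lists) or 2 highest genes with a site in both, the same number with a Day 12 site alone, and every gene with a Day 12- 4 site alone were named, with Spi1, Itgam and the 10 highest genes with a site in 1 library alone. A few genes this rule names are not reported here. Elane, Prtn3 and S100a8 were named by their promoter sequence. Members and lists were chosen with earlier results of these data known. Alternatives were other distances, windows, score minimums and list lengths. Shares within bins of the Day 12 score were chosen after the data were seen.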

Additional observations from a re-analysis of the deposited data

How the results depend on the processing

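With 1 library per condition, nothing could be left out and depth was not known, so the alternatives show only how the shares move with the definitions. No paired analysis was possible because each condition had 1 library. The share of Day 12- 4 sites with a Day 12 summit (72.1%) was 54.5% within 50 bp, 82.1% within 200 bp and 87.1% within 500 bp. It was 86.8% and 91.2% at scores of at least 10 and 20, and 49.2% and 54.4% at equal lengths, set by the shortest list or at 2000 sites. The share of Day 12 sites kept (8.24%) was 6.24%, 9.39% and 10.0% (distances), 11.2% and 10.5% (scores), and 49.2% and 54.4% (equal lengths). The share of Day 12 genes with a Day 12- 4 site (45.0%) was 32.4% and 22.3% at the score minimums, 71.0% and 65.1% at equal lengths, 31.1% for the gene body alone and 62.9% within 50 kb. For the list genes (56.4%) these values were 40.8%, 32.0%, 83.0%, 71.4%, 39.4% and 73.2%. The gene-end share of kept Day 12 sites (33.3%) was 28.4% within 500 bp, 39.6% within 2 kb and 49.3% at equal length. For missing Day 12 sites (16.3%) it was 11.3%, 23.4% and 44.2%, and for unshared Day 12- 4 sites (21.6%) 16.1%, 28.2% and 16.0%. The share of Day 12- 4 sites called at Day 12 minus that called at Day 8 was 2.61 percentage points in full lists and reversed to -7.42 at equal length, and the cause was not tested. Leaving out scaffolds moved neither sharing value beyond its counting interval, nor did taking 1 promoter window a gene, chosen after seeing the data, move the PU.1-type shares (13.2% and 2.54%). For single gene lists, 37 of 71 alternative values stayed within the counting interval and 34 did not. The T-lymphoid list gave no value at 2000 sites, where no gene of it had a Day 12 site.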

Other observations

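MicroRNA genes were counted in the same way, a set chosen after values were seen. Among 1005 RefSeq hairpins 234 had a Day 12- 4 site within 10 kb and 653 a Day 12 site, and 230 had both, or 35.2% (31.6 to 39.0%) of those with a Day 12 site. Over protein-coding genes the share was 45.0%. The 2 sets were not matched for Day 12 score, number of Day 12 sites or gene length. The scores given for microRNA genes are the highest of each library, and whether they belong to 1 shared site was not checked. Mir142, a microRNA gene of blood cells, scored 72.7 in the Day 12- 4 library and 340 in the Day 12 library. The clustered genes Mir23a, Mir27a and Mir24-2 had the same highest Day 12 site, with 739, and a Day 12- 4 summit lay 11 bp from it. Their highest Day 12- 4 score was 39.0. Mir146b, an inflammatory feedback microRNA, scored 28.4 in the Day 12- 4 library and 514 in the Day 12 library. Mir125a had no Day 12- 4 site and a Day 12 score of 170. Mir223, a granulocyte microRNA, had no Day 12- 4 site and a Day 12 score of 6.45, and Mir155 had a site in neither library.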
